A study of Homo sapiens with 11 samples.

Results

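The 9 genes described here encode the sulfur carrier URM1, its activating enzyme MOCS3, the thiolase pair CTU1 and CTU2, and 5 subunits of Elongator (ELP2, ELP3, ELP4, ELP5 and ELP6). They were picked by gene symbol from the 58735 genes of the count table, and all 9 were found and passed the filter on low counts, which left 18368 genes for testing. Poly(A)-selected RNA of HEK293T cells, a human embryonic kidney line, was sequenced in 11 libraries that form 4 groups. The control group (n = 3) is labelled as given a control siRNA, the siNAE1 group (n = 3) received 50 nM siRNA against NAE1, the siUBE2M group (n = 3) 70 nM siRNA against UBE2M, and the siURM1 group (n = 2) 60 nM siRNA against URM1, each for 48 h. Doses therefore differed between the knockdowns. The study's methods also name a non-targeting siRNA as a negative control, without a dose, while the deposited protocol lists only the 3 targeting siRNAs and the study's own names for the control libraries read as wild type. If the control cells were not transfected, a change shared by all 3 knockdowns cannot be told apart from an effect of transfection. A single siRNA sequence is listed for each target, so the loss of a target and other effects of its siRNA cannot be told apart. The labels call the replicates biological without saying if they came from separate cultures. The p-values therefore measure the spread between these libraries, which may be partly technical.

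Several tRNAs, among them those for lysine, glutamate and glutamine, carry a modified uridine at the wobble position of the anticodon, and the modification has a sulfur part and a carbon side chain. For the sulfur part, MOCS3, an E1-like enzyme that also acts in molybdenum cofactor synthesis, activates the C terminus of URM1 and loads it with sulfur, and CTU1 with CTU2 places that sulfur on the uridine. URM1 is also a ubiquitin-like modifier that can be attached to proteins. The side chain begins with Elongator, in which ELP3 is the catalytic subunit, ELP2 is a WD40 scaffold protein, and ELP4, ELP5 and ELP6 form a ring-shaped subcomplex that binds tRNA. NAE1 and UBE2M are best known from the ubiquitin-like NEDD8 system, in which NAE1 is a subunit of the E1 and UBE2M an E2. The study also places both enzymes in the attachment of URM1 to proteins, a role that RNA levels do not measure. They are called the NEDD8-pathway genes below by that longer-known role alone.

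Total counts ranged from 11733163 to 16321391 per library, and the counts of the 9 genes from 180 to 3273. The biological coefficient of variation over all tested genes was 7.06%. Values below are CPM, counts scaled to a common library size with TMM factors, except where FPKM, which divides by gene length, is named. The 5 HEK293T markers were detected in every library, and they summed to between 385 and 429 CPM in control libraries and between 489 and 657 CPM in knockdown libraries. They did not move as 1 group. VIM was above control in every knockdown library. PAX2, at 9.41 to 11.1 CPM in control, was at 4.34 to 6.43 in siUBE2M and 18.3 to 19.7 in siURM1. LIN28B was below control in siUBE2M, NEFM was above control in siNAE1 and siURM1, and NEFL, at 55.4 to 61.3 CPM in control, was at 97.8 to 102 in siNAE1. The part of these differences in the values below was not tested. Markers of liver-derived HepG2 cells, cervical HeLa cells and blood summed to at most 0.983, 1.33 and 0.221 CPM in any library. In the targeted groups, NAE1 was at 39.8 ± 4.04 CPM (SD, n = 3) in siNAE1 against 102 ± 5.89 (SD, n = 3) in control, and UBE2M at 16.8 ± 2.02 CPM (SD, n = 3) in siUBE2M against 265 ± 2.68 (SD, n = 3). Outside its own group NAE1 rose by a log2 fold change of 0.28 in siUBE2M and 0.38 in siURM1 (edgeR adjusted p = 0.0019 and 0.00022). UBE2M fell on the same log2 scale by 0.16 in siNAE1 and 0.37 in siURM1 (edgeR adjusted p = 0.029 and 8.9e-05). In bulk RNA, a lower level in every cell and loss in some of the cells cannot be told apart.

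The third target, URM1 (chromosome 9, 128371319 to 128392016, plus strand, GRCh38), was read at 54.4, 51.0 and 55.4 CPM in the control libraries and at 15.2 and 15.5 CPM in the siURM1 libraries. This left 28.6% of the control level, a log2 fold change of -1.80 (SE 0.10, edgeR adjusted p = 2.6e-15), which checks the labels of that group. The other knockdowns moved URM1 much less. In siNAE1 the 3 libraries had 63.6, 66.3 and 64.7 CPM, all above the highest control, and URM1 rose by 0.28 (SE 0.078, edgeR adjusted p = 0.0032). In siUBE2M they had 46.5, 44.6 and 52.8 CPM, and replicate 3 lay inside the control range. The difference of -0.16 did not pass (95% interval -0.32 to -0.00059, edgeR adjusted p = 0.096). It passed without that replicate (-0.23, edgeR adjusted p = 0.023) and when libraries were scaled by their totals alone (-0.22, edgeR adjusted p = 0.021). Under that scaling the rise in siNAE1 was 0.15 and did not pass (edgeR adjusted p = 0.096).

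MOCS3 (chromosome 20, 50958826 to 50963931, plus strand), the only member with its transcript in 1 exon, fell in siUBE2M. Its control libraries had 20.8, 20.1 and 19.2 CPM and the siUBE2M libraries 13.7, 12.0 and 13.8 CPM, with no overlap. The change was -0.61 (SE 0.11, edgeR adjusted p = 2.2e-05), or 65.7% of control. In siNAE1 the values were 18.1, 18.0 and 16.1 CPM, again all below the control libraries, but the difference of -0.20 did not pass (95% interval -0.41 to 0.016, edgeR adjusted p = 0.11). Scaling by library totals alone gave -0.32 and a pass (edgeR adjusted p = 0.010). In siURM1 they were 22.2 and 21.5 CPM, above every control library, with a difference of 0.13 that did not pass (95% interval -0.11 to 0.36, edgeR adjusted p = 0.40). Loss of most URM1 mRNA thus came with no detected change in the mRNA of its activating enzyme at this depth.

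CTU1 (chromosome 19, 51097606 to 51108370, minus strand), the subunit that holds the thiolase active site, was lower in all 3 knockdowns. Control libraries had 23.7, 26.1 and 26.8 CPM. The siNAE1 libraries had 21.1, 22.0 and 19.7 CPM, the siUBE2M libraries 16.3, 17.0 and 20.0 CPM, and the siURM1 libraries 17.7 and 19.9 CPM, and every one of these was below the lowest control. CTU1 fell by 0.28 on the log2 scale in siNAE1 (SE 0.10, edgeR adjusted p = 0.0229), by 0.52 in siUBE2M (SE 0.10, edgeR adjusted p = 0.00013), and by 0.44 in siURM1 (SE 0.12, edgeR adjusted p = 0.0025). The siURM1 call rested on 2 libraries and was lost without replicate 1 of that group (-0.36, edgeR adjusted p = 0.071). Fits that leave 1 siURM1 library take the spread from the other groups and assume that the lone library varies like them. The siNAE1 call was lost without control replicate 2, control replicate 3 or siNAE1 replicate 3, where the highest edgeR adjusted p was 0.087, and with DESeq2 on those 2 groups (adjusted p = 0.053). The 3 comparisons share their control libraries, and it is unclear whether those cells were transfected.

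CTU2 (chromosome 16, 88706463 to 88715386, plus strand), the partner of CTU1, passed in no knockdown against control. It was at 36.2, 32.1 and 29.6 CPM in control, 28.3, 32.5 and 36.8 CPM in siNAE1, 33.9, 38.3 and 41.8 CPM in siUBE2M, and 28.9 and 28.1 CPM in siURM1. Its coefficient of variation in siNAE1, 13.0%, was the highest of any member in any group. The differences were -0.0071 (95% interval -0.21 to 0.20), 0.22 (0.018 to 0.42) and -0.19 (-0.42 to 0.036) in siNAE1, siUBE2M and siURM1, with edgeR adjusted p of 0.96, 0.070 and 0.17. The siUBE2M difference passed without control replicate 1 (0.31, edgeR adjusted p = 0.026) or siUBE2M replicate 1 (0.30, edgeR adjusted p = 0.024), and the siURM1 difference passed under scaling by library totals (-0.28, edgeR adjusted p = 0.043). CTU1 and CTU2, whose products work as a complex, therefore did not show one pattern across the groups.

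ELP6 (chromosome 3, 47495640 to 47513761, minus strand) changed most among the Elongator subunits. Its control libraries had 98.5, 86.3 and 84.0 CPM, the siNAE1 libraries 55.8, 57.9 and 58.2 CPM, the siUBE2M libraries 64.7, 64.1 and 77.1 CPM, and the siURM1 libraries 88.4 and 87.6 CPM. Both NEDD8-pathway knockdowns lay wholly below control, and siURM1 lay inside the control range. ELP6 fell by 0.65 in siNAE1 (SE 0.079, edgeR adjusted p = 2.5e-08), to 64.0% of control, and by 0.38 in siUBE2M (SE 0.077, edgeR adjusted p = 0.00012), to 76.6%. In siURM1 the difference was -0.026 (95% interval -0.20 to 0.15, edgeR adjusted p = 0.83).

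ELP5 (chromosome 17, 7251416 to 7259940, plus strand), a ring partner of ELP6, moved the other way in siNAE1. It was at 86.6, 93.8 and 84.2 CPM in control and 97.6, 104 and 111 CPM in siNAE1, a rise of 0.24 (SE 0.074, edgeR adjusted p = 0.0070). That call was not reached under scaling by library totals alone, which gave 0.11 (edgeR adjusted p = 0.18). In siUBE2M it was at 82.4, 82.7 and 97.6 CPM and in siURM1 at 90.3 and 91.0 CPM, with differences of -0.011 and 0.039 that did not pass. The remaining ring subunit, ELP4 (chromosome 11, 31509700 to 31790328, plus strand), was at 22.2, 21.2 and 22.5 CPM in control and 25.9, 27.3 and 24.1 CPM in siNAE1, a rise of 0.23 (SE 0.097, edgeR adjusted p = 0.042). This call was the least stable of the set, since it passed in 2 of 10 other settings and in 6 of 11 fits that left out a library. It was lost without any 1 of the 3 control libraries or without siNAE1 replicate 1 or 2, where the highest edgeR adjusted p was 0.15. ELP4 was at 24.2, 22.6 and 25.6 CPM in siUBE2M and 23.5 and 26.3 CPM in siURM1, where differences of 0.13 and 0.18 did not pass.

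The catalytic subunit ELP3 (chromosome 8, 28089673 to 28191156, plus strand) was lower in siNAE1. Its control libraries had 36.2, 33.2 and 35.7 CPM and the siNAE1 libraries 30.3, 29.1 and 25.8 CPM, with no overlap, and it fell by 0.30 (SE 0.090, edgeR adjusted p = 0.0059). The siUBE2M libraries had 35.9, 32.9 and 38.1 CPM and the siURM1 libraries 35.4 and 36.6 CPM, both around the control values, with differences of 0.025 (95% interval -0.15 to 0.20) and 0.042 (-0.16 to 0.24). ELP2 (chromosome 18, 36129444 to 36180556, plus strand) was the steadiest member. It had 198, 195 and 206 CPM in control, 204, 210 and 189 CPM in siNAE1, 197, 205 and 202 CPM in siUBE2M, and 197 and 211 CPM in siURM1. Its differences from control were 0.011, 0.015 and 0.034, and the widest of their 95% intervals ran from -0.10 to 0.17.

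**Figure D1:**
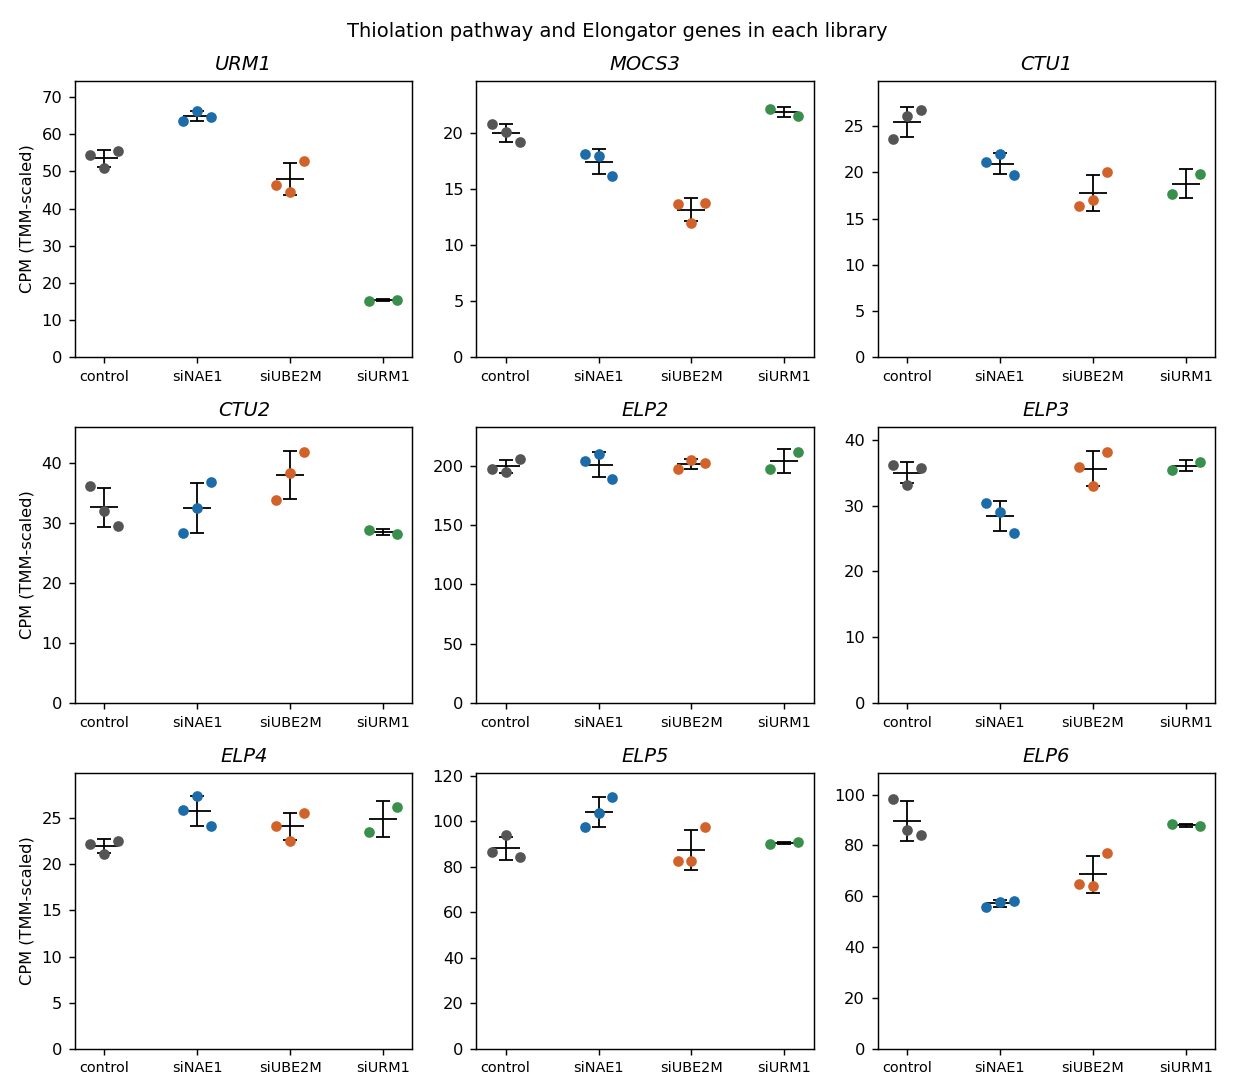
TMM-scaled CPM of the 9 genes (y axis, from 0) in each library of the 4 groups (x axis). Points are libraries and bars give the mean ± SD. URM1 in siURM1 stands at 15.3 CPM against 53.6 in control, CTU1 is below control in all 3 knockdowns, ELP6 is below control in siNAE1 and siUBE2M, and ELP2 stays near 200.9 CPM throughout.

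Counted together in siNAE1, 3 of 9 members rose (URM1, ELP4 and ELP5), 3 fell (CTU1, ELP3 and ELP6) and 3 did not pass, where 54.7% of all tested genes passed, 27.6% upward and 27.1% downward. In siUBE2M, 3 of 9 fell (MOCS3, CTU1 and ELP6) and none of the others passed, where 45.3% of all tested genes passed and 22.6% fell. In siURM1, 2 of 9 fell (URM1 and CTU1), where 41.6% of all tested genes passed and 20.8% fell. The members were not tested as a set against other genes. When libraries were scaled by their totals alone, 0 members rose and 4 fell in siNAE1, 0 rose and 4 fell in siUBE2M, and 0 rose and 3 fell in siURM1, and the median of all genes moved down as well (-0.13, -0.050 and -0.11). Under that scaling 54.9%, 44.5% and 42.1% of all tested genes passed in the same order. The study's threshold for a differentially expressed gene, which adds a log2 fold change of 1 or more in either direction, was met only by URM1 in siURM1, while 13.9%, 7.11% and 7.62% of all tested genes met it in siNAE1, siUBE2M and siURM1. Without overlap between the libraries of the 2 groups, 3 members were higher and 4 lower in siNAE1 (29.8% and 29.7% of all tested genes), 1 higher and 3 lower in siUBE2M (26.8% and 26.9%), and 2 higher and 3 lower in siURM1 (29.8% and 31.0%). The median change of the 9 was -0.0071, -0.011 and 0.034 in the 3 knockdowns, beside -0.0021, 0.0075 and -0.021 over all tested genes.

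**Figure D2:**
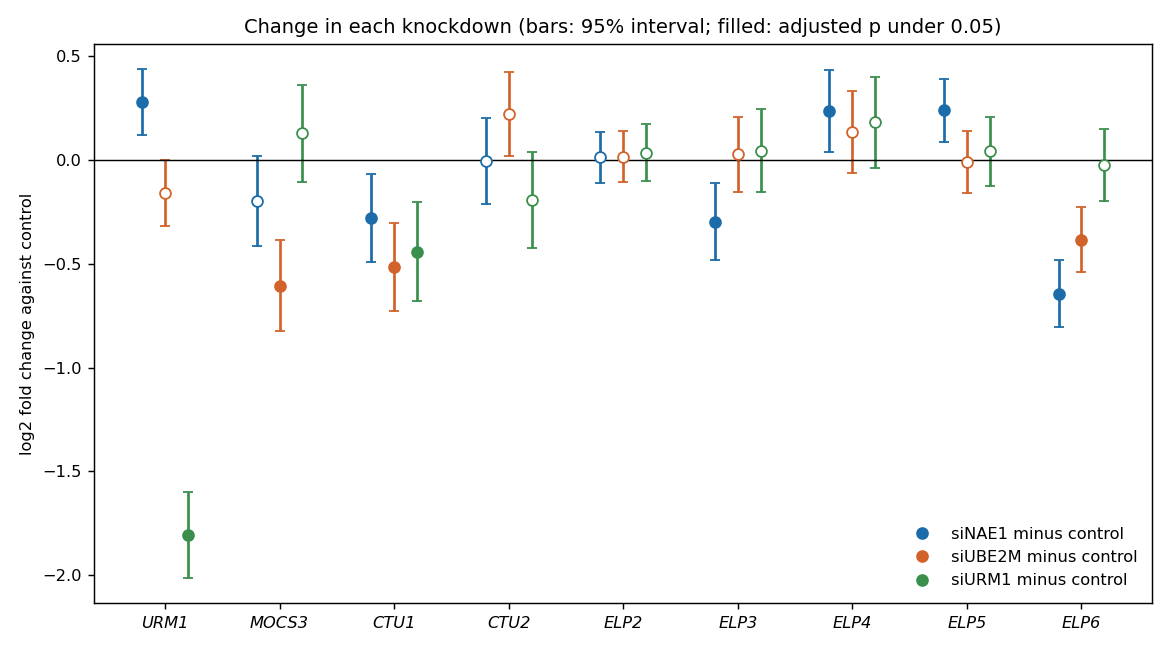
Log2 fold change of each member against control (y axis) for the 3 knockdowns, with 95% intervals. Filled points passed at an adjusted p under 0.05, and all changes but that of URM1 in siURM1 lie between -0.65 and 0.28.

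The knockdowns were also compared with each other, since these tests do not use the control libraries as a side of the difference. Between siNAE1 and siUBE2M, 5 of 9 members passed, where 44.3% of all tested genes did. URM1 was higher in siNAE1 by 0.44 (SE 0.079, edgeR adjusted p = 3.0e-05), MOCS3 by 0.41 (SE 0.11, edgeR adjusted p = 0.0030) and ELP5 by 0.25 (SE 0.074, edgeR adjusted p = 0.0067). ELP3 was lower in siNAE1 by a log2 difference of -0.32 (SE 0.091, edgeR adjusted p = 0.0042) and ELP6 by -0.26 (SE 0.080, edgeR adjusted p = 0.0083). The ELP6 call was lost without siUBE2M replicate 3 (-0.17, edgeR adjusted p = 0.094) and the ELP5 call without siUBE2M replicate 1 or 2 (0.20 in both, edgeR adjusted p = 0.061 and 0.060). CTU1 differed by 0.24, which did not pass (95% interval 0.017 to 0.46) except without siUBE2M replicate 3 (0.33, edgeR adjusted p = 0.024). CTU2 differed by -0.23, which did not pass (95% interval -0.43 to -0.021) except without siNAE1 replicate 3 or siUBE2M replicate 1 (-0.31 in both, edgeR adjusted p = 0.021 and 0.024), with at least 10 counts in every library (-0.25, edgeR adjusted p = 0.042), or under scaling by library totals (-0.29, edgeR adjusted p = 0.018).

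Between siNAE1 and siURM1, 4 of 9 passed against 38.6% of all tested genes. Apart from the target URM1, MOCS3 was lower in siNAE1 by -0.32 (edgeR adjusted p = 0.027), ELP3 by -0.34 (edgeR adjusted p = 0.0073) and ELP6 by -0.62 (edgeR adjusted p = 8.8e-07). The MOCS3 call was lost without siNAE1 replicate 3 (-0.27), siURM1 replicate 1 (-0.31) or siURM1 replicate 2 (-0.35), where the highest edgeR adjusted p was 0.13, and in 3 of 10 other settings (-0.33 to -0.31). The ELP3 call was lost without siURM1 replicate 2 (-0.32, edgeR adjusted p = 0.058, with 1 siURM1 library left), and ELP5, at 0.20, did not pass except in 2 of the 11 fits that left out a library (without siNAE1 replicate 1, or siUBE2M replicate 3, which is in neither group but shares the estimate of spread), where the lowest edgeR adjusted p was 0.033. Between siUBE2M and siURM1, 4 of 9 passed against 35.0% of all tested genes. Apart from URM1, MOCS3 was lower in siUBE2M by -0.73 (edgeR adjusted p = 9.4e-06), ELP6 was lower by -0.36 (edgeR adjusted p = 0.0014), and CTU2 was higher by 0.41 (edgeR adjusted p = 0.0044). CTU1 differed by -0.074 between them (95% interval -0.32 to 0.17).

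Levels of different genes were compared as FPKM. In control libraries the order was ELP5 at 31.6 ± 1.90 FPKM (SD, n = 3), ELP6 at 26.8 ± 2.21, ELP2 at 17.9 ± 0.515, CTU1 at 12.1 ± 0.820, URM1 at 12.0 ± 0.487, CTU2 at 9.15 ± 0.896, ELP3 at 6.44 ± 0.263, MOCS3 at 3.89 ± 0.145 and ELP4 at 0.798 ± 0.0239. CTU1 and URM1 were the only neighbours in this order whose control ranges overlapped. Among 14011 tested protein-coding genes, ELP5 stood above 91.1%, URM1 above 72.5%, MOCS3 above 42.0% and ELP4 above 17.1%. The listed length of ELP4 is 27306 bases, against 2087 to 11068 for the others, and this length lowers its FPKM. By CPM, ELP4 and MOCS3 were at 22.0 and 20.0 in control. The order puts the activating enzyme MOCS3 below its substrate URM1 and below both thiolase subunits.

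**Figure D3:**
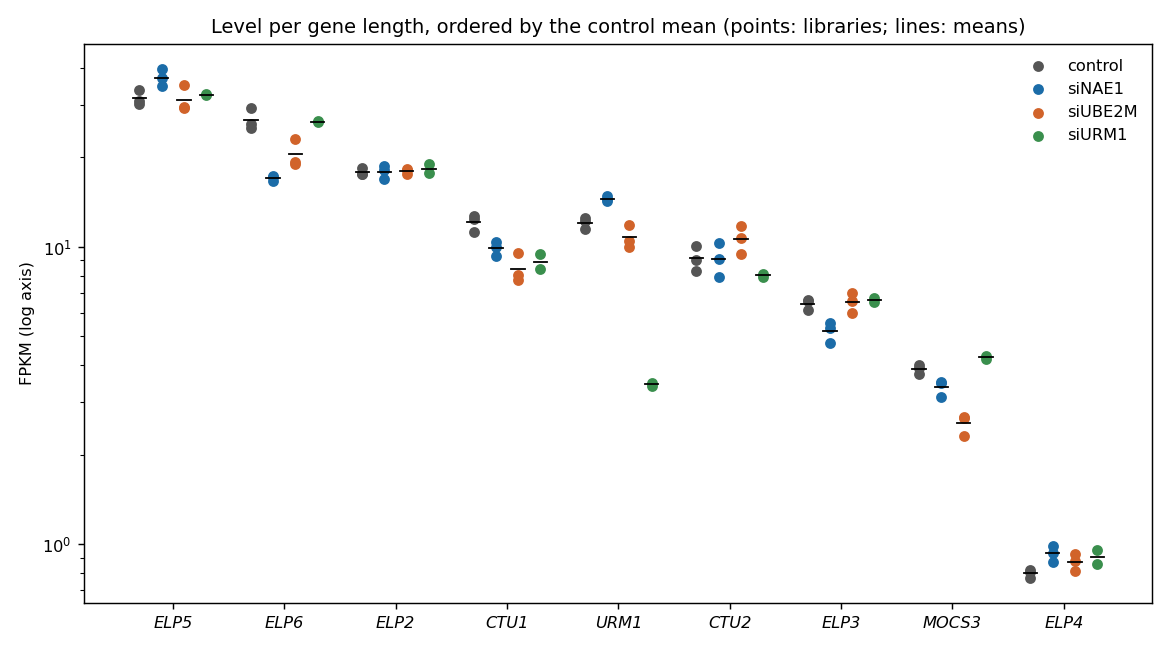
FPKM of each member (log y axis) in every library, with genes ordered along the x axis by their control mean. Points are libraries and lines are group means. Control means run from 31.6 FPKM for ELP5 to 0.798 for ELP4, and URM1 in siURM1 leaves its place in the order.

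A ratio of 2 genes within a library does not depend on how libraries are scaled. The ratio of URM1 to MOCS3 FPKM was 3.03, 2.94 and 3.34 in control, 4.06, 4.27 and 4.64 in siNAE1, 3.93, 4.30 and 4.44 in siUBE2M, and 0.793 and 0.834 in siURM1. It was above every control library in both NEDD8-pathway knockdowns, where the gene that passed was URM1 in siNAE1 and MOCS3 in siUBE2M. The ratio of ELP6 to ELP5 was 0.950, 0.768 and 0.833 in control, 0.477, 0.466 and 0.439 in siNAE1, 0.656, 0.647 and 0.660 in siUBE2M, and 0.818 and 0.804 in siURM1. The 3 groups control, siUBE2M and siNAE1 did not overlap in this ratio. Replicate 3 of siUBE2M was the highest of its group in CPM for both genes and for 8 of the 9 members, while 36.8% of all tested genes were highest in that library.

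The ratio of CTU1 to CTU2 was 1.11, 1.37 and 1.53 in control, 1.26, 1.15 and 0.908 in siNAE1, 0.817, 0.753 and 0.811 in siUBE2M, and 1.03 and 1.20 in siURM1. All siUBE2M libraries were below every library of the other groups, and the other 3 groups overlapped each other. The ratio of ELP3 to ELP2 was 0.376, 0.350 and 0.356 in control, 0.306, 0.285 and 0.281 in siNAE1, 0.373, 0.330 and 0.388 in siUBE2M, and 0.369 and 0.356 in siURM1. Only the siNAE1 libraries stood apart. The ratios are descriptions and were not tested.

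**Figure D4:**
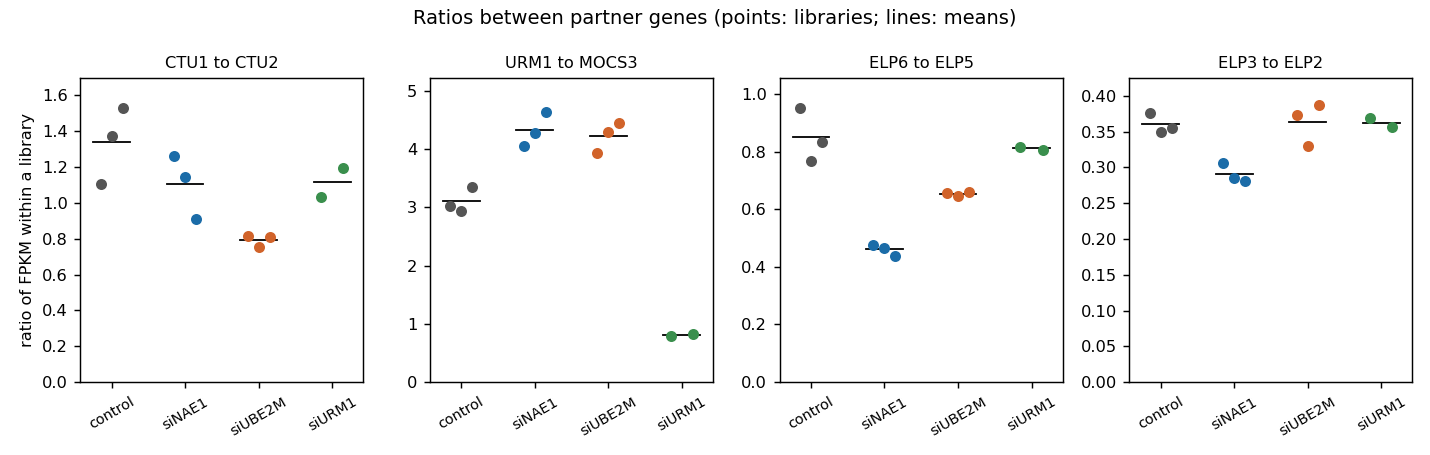
FPKM ratios of 4 gene pairs within each library (y axes, from 0) by group (x axes). Points are libraries and lines are means. The mean ratio of ELP6 to ELP5 is 0.850 in control, 0.655 in siUBE2M and 0.461 in siNAE1, and that of CTU1 to CTU2 is 0.794 in siUBE2M against 1.34 in control.

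Promoter windows of 250 bases before to 50 after a transcript start (RefSeq, GRCh38) were on hand for 7 of the 9 members, with several starts for ELP5 and ELP6 and 11 windows in all, and none was on hand for URM1 and ELP3. They were searched on both strands for 5 sets of letters that stress-related or common promoter factors bind. TGACGTCA, the cAMP response element, was in 3 of the 11 windows, from 2 members, CTU2 and ELP5, and in 1.85% of all 35116 windows. Windows of 1 gene can overlap, and both ELP5 matches are the same site. CCGGAAGT, an ETS family motif, was in 3 of the 11, from MOCS3, CTU1 and ELP5, and in 4.14% of all windows. The matching sites are shown for the thiolation genes and ELP5 since these are the members that hold the longer motifs, with the match in capitals, 5′ to 3′ on the strand of the gene, so that CCGGAAGT appears as its reverse complement.
CTU2, TGACGTCA, chr16:88706397-88706426, plus strand: ctgcgccgcgcTGACGTCAtcgtagggcgc
ELP5, TGACGTCA, chr17:7252197-7252226, plus strand: ggcggggagagTGACGTCActtggcccgcg
MOCS3, CCGGAAGT, chr20:50958813-50958842, plus strand: ctttcacgacaACTTCCGGaagaggtcgcc
CTU1, CCGGAAGT, chr19:51108391-51108420, minus strand: gtctcggagtcACTTCCGGgccaggcttcc
ELP5, CCGGAAGT, chr17:7252008-7252037, plus strand: cctttgacactACTTCCGGtggtgacgtgt
CCAAT, the NF-Y motif, was in 5 of the 11 windows, from ELP4, ELP5 and ELP6, and in 34.6% of all windows. TGATGNAA, the core of the ATF4 and CEBP composite element, was in 0 of the 11 windows and 3.62% of all windows, and TGACNNNGC, the antioxidant response element core, in 0 and 13.4%. The 2 genes with the same ETS letters that fell together in siUBE2M, MOCS3 and CTU1, share them with ELP5, which did not pass there. ELP6, which fell in both NEDD8-pathway knockdowns, and ELP4 and ELP5, which rose in siNAE1, all hold CCAAT. CCGGAAGT and CCAAT were thus each held by members that fell and by members that rose in some knockdown. TGACGTCA was held by CTU2, which passed in no knockdown against control, and by ELP5, which rose in siNAE1. URM1 and ELP3 had no window. A link of motifs to direction was not tested, and a match is only a description of the letters.

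**Figure D5:**
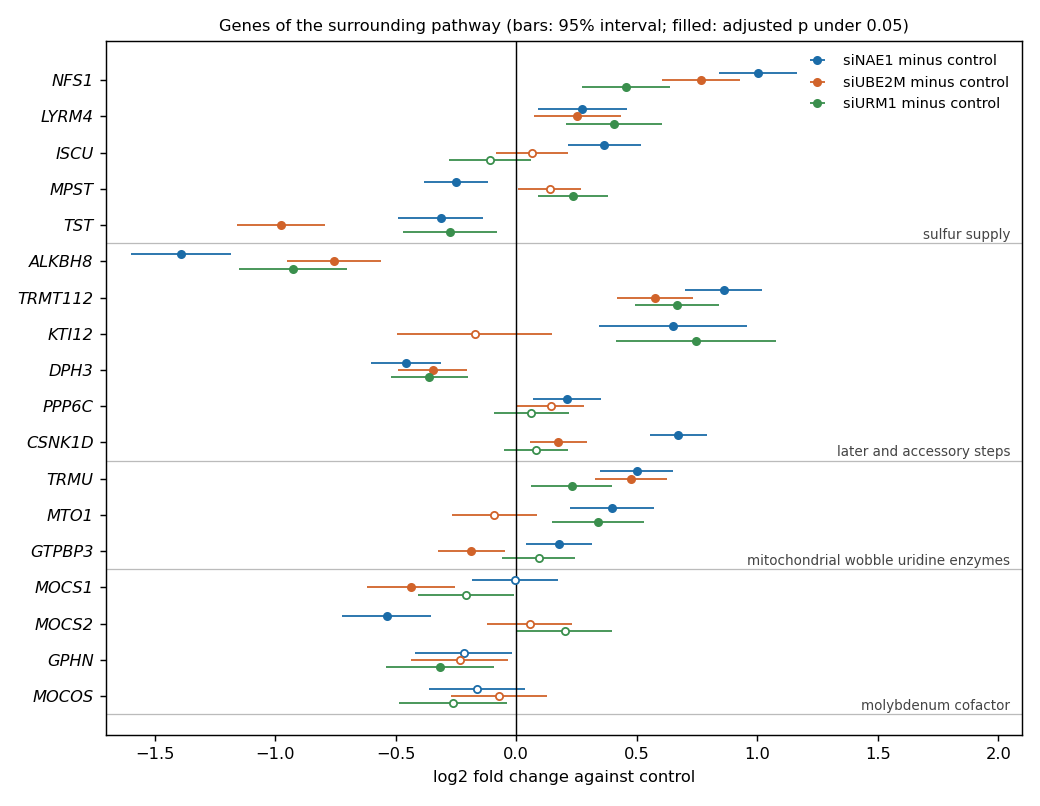
Log2 fold change against control (x axis) with 95% intervals for the 18 genes of the surrounding pathway (y axis), in the 4 classes named at the right. Filled points passed at an adjusted p under 0.05. ALKBH8 is lower and NFS1 and TRMT112 are higher than control in all 3 knockdowns.

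A list of 18 genes that act before, after or beside these 9 was tested in the same fit, and all 18 passed the filter. In siNAE1, 10 rose and 5 fell, in siUBE2M 5 rose and 5 fell, and in siURM1 7 rose and 4 fell. Over all tested genes, 27.6% rose and 27.1% fell in siNAE1, 22.7% and 22.6% in siUBE2M, and 20.8% and 20.8% in siURM1, and the counts of the classes below stand beside the same shares. The median change of the list was 0.19, -0.0080 and 0.088, beside the medians over all tested genes given above. Of the 5 sulfur supply genes, 3 rose and 2 fell in siNAE1, 2 rose and 1 fell in siUBE2M, and 3 rose and 1 fell in siURM1, where 54.7%, 45.3% and 41.6% of all tested genes passed. NFS1, the cysteine desulfurase from which sulfur for URM1 is drawn, was at 28.6 ± 1.45 CPM (SD, n = 3) in control, 57.3 ± 1.36 (SD, n = 3) in siNAE1, 48.6 ± 2.00 (SD, n = 3) in siUBE2M and 39.1 ± 0.470 (SD, n = 2) in siURM1. Its rises of 1.00, 0.77 and 0.45 had edgeR adjusted p of 2.6e-12, 1.9e-09 and 0.00010. TST, a thiosulfate sulfurtransferase, fell by 0.31, 0.98 and 0.27 in the same order (edgeR adjusted p = 0.0027, 1.3e-10 and 0.021), to 24.9 ± 2.61 CPM (SD, n = 3) in siUBE2M from 49.0 ± 3.60 (SD, n = 3) in control.

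Among the 6 genes of later and accessory steps, 4 rose and 2 fell in siNAE1, and 2 rose and 2 fell in each of siUBE2M and siURM1, where 54.7%, 45.3% and 41.6% of all tested genes passed in either direction. ALKBH8, the methyltransferase that completes the side chain begun by Elongator, was at 43.3 ± 1.23 CPM (SD, n = 3) in control, 16.4 ± 2.57 (SD, n = 3) in siNAE1, 25.6 ± 1.71 (SD, n = 3) in siUBE2M and 22.8 ± 0.331 (SD, n = 2) in siURM1. It fell by 1.39, 0.76 and 0.93 (edgeR adjusted p = 4.1e-13, 9.7e-08 and 3.3e-08), more than any of the 9 members other than URM1 in siURM1. Its partner protein TRMT112, which also serves other methyltransferases, rose by 0.86, 0.58 and 0.67 (edgeR adjusted p = 5.0e-11, 3.0e-07 and 1.5e-07). The enzyme and its partner thus changed in opposite directions in every knockdown.

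KTI12, an Elongator-associated ATPase, was low at 6.92 ± 0.619 CPM (SD, n = 3) in control and rose by 0.65 in siNAE1 and 0.75 in siURM1 (edgeR adjusted p = 0.00046 and 0.00035), with -0.17 in siUBE2M (edgeR adjusted p = 0.39). CSNK1D, a kinase whose yeast relative phosphorylates Elongator, rose by 0.67 in siNAE1 and by 0.17 in siUBE2M (edgeR adjusted p = 2.1e-11 and 0.015), with 0.082 in siURM1 (edgeR adjusted p = 0.33). Of the 3 mitochondrial wobble uridine enzymes, 3 rose in siNAE1 (27.6% of all tested genes), 1 rose and 1 fell in siUBE2M (22.7% and 22.6%), and 2 rose in siURM1 (20.8%). Of the 4 genes of the molybdenum cofactor branch, which shares MOCS3, none rose and 1 fell in each knockdown. In siNAE1 the gene that fell was MOCS2, which encodes both subunits of molybdopterin synthase (-0.54, edgeR adjusted p = 7.5e-06), with 0.056 and 0.20 in siUBE2M and siURM1, which did not pass.

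Overlaps between genes bear on what the counts of a member hold. In GENCODE v44, 6 of the 9 members share exonic bases with a gene on the opposite strand, and CTU1, ELP3 and ELP6 share none. The libraries kept strand, but the sources used here do not state if the counting did, so reads of such a pair may not be told apart. ELP4 shares 5241 exonic bases (19.2%) with PAX6, a developmental transcription factor gene. PAX6 fell by 0.75 in siNAE1, 0.42 in siUBE2M and 0.37 in siURM1 (edgeR adjusted p = 1.2e-07, 0.00059 and 0.0065), while ELP4 rose or did not pass. ELP5 shares 516 bases (17.0%) with CTDNEP1, a nuclear envelope phosphatase gene, which rose by 0.30, 0.37 and 0.37 (edgeR adjusted p = 0.00033, 3.4e-05 and 0.00017), while ELP5 rose in siNAE1 and did not pass in the other 2 knockdowns. MOCS3 shares 323 bases (6.32%) with DPM1, and the overlaps of CTU2, ELP2 and URM1 cover 10.0%, 3.57% and 0.23% of their exonic bases. CTU2 shares 294 bases (8.35%) with a noncoding RNA gene that passed in no knockdown, and 59 (1.68%) with PIEZO1. PIEZO1 fell by 0.37 in siUBE2M and 0.40 in siURM1 (edgeR adjusted p = 0.00011 and 0.00022) and did not pass in siNAE1.

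For 4 members, another protein-coding gene starts within 1 kb on the opposite strand. DPM1, a subunit of dolichol-phosphate mannose synthase, starts 322 bases from MOCS3 and differed from control by -0.17, -0.17 and 0.017 in siNAE1, siUBE2M and siURM1, none of which passed. MOCS3 thus fell in siUBE2M where the gene next to its start did not pass (95% interval of DPM1 -0.35 to 0.0072). RNF166, a ubiquitin ligase gene, starts 75 bases from CTU2 and fell by 0.29 in siNAE1 and 0.48 in siUBE2M (edgeR adjusted p = 0.0029 and 1.2e-05), where CTU2 did not pass. SLC39A6, a zinc transporter gene, starts 59 bases from ELP2 and rose by 0.71 in siNAE1 (edgeR adjusted p = 1.8e-10), where ELP2 differed by 0.011. IMMP1L, a mitochondrial peptidase gene, starts 110 bases from ELP4 and passed in no knockdown, with -0.020, -0.16 and -0.25.

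To find the genes whose pattern over the 11 libraries was most like that of each member, the root mean square difference of log2 CPM, each gene centred on its own mean, was taken over 10020 genes. The nearest gene was AIDA for URM1 (0.17), SNRPC for MOCS3 (0.086), ZNHIT6 for CTU1 (0.071), CDK10 for CTU2 (0.071), HNRNPU for ELP2 (0.050), STK24 for ELP3 (0.068), UBE2A for ELP4 (0.044), ERH for ELP5 (0.043) and KLHL12 for ELP6 (0.076). The root mean square of ELP2's own centred values was 0.046, below its distance to HNRNPU, so that distance shows no shared pattern. No member had another member as its nearest gene, and the closest other member ranked between 105 (ELP2 for ELP4) and 1709 (ELP2 for CTU1). With so few members among 10020 genes, a nearest gene from outside the set was likely for any of them. The ranks were not set against those of other gene sets, so they do not show whether members moved together. ELP2, the closest member to CTU1 and CTU2, lay 0.2239 and 0.2024 from them. A gene with no variation would lie 0.2225 and 0.1827 from them. AIDA, the gene most like URM1, differed from control by 0.59, 0.22 and -1.47 in siNAE1, siUBE2M and siURM1. KLHL12, the gene most like ELP6, differed by -0.61, -0.40 and -0.062. Because these genes were chosen for following a member over the same 11 libraries, their distances and differences are descriptions with no test.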

How the data were processed

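Per the labels, the study sequenced strand-specific poly(A) RNA libraries of HEK293T cells. The authors trimmed reads with fastp, aligned them with HISAT2 2.0.5 and counted genes with featureCounts 1.5.0-p3, and the deposited table holds raw counts and FPKM per gene and library with GRCh38 coordinates. The strand setting of the counting and the annotation release are not given in the sources used here. All 11 libraries were fitted together in 4 groups with edgeR 4.0.16 (R 4.3.3) after filterByExpr and TMM scaling, with quasi-likelihood tests adjusted by the Benjamini-Hochberg method over all 18368 tested genes. A gene passed at an adjusted p under 0.05. SE is the log2 fold change divided by the root of its F. Deposited FPKM served for levels between genes and, with limma 3.58.1, as an alternative, as did DESeq2 1.42.0, other filters and scalings and leaving out libraries. Members and lists were chosen with earlier results of these data known. Genes named were the members, the siRNA targets, and listed pathway genes that passed and changed by 0.5 or more (log2) in any knockdown. Also named were protein-coding genes sharing exonic bases with a member or starting within 1 kb of it on the opposite strand. CLDN7, at 7 to 34 counts per library, shares bases with ELP5 and was left out of the results. The gene most like each member was taken among those with a mean of at least 10 CPM.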

Additional observations from a re-analysis of the deposited data

How the results depend on the processing

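Of 837 single-gene values recomputed under other settings or without a library of the 2 groups compared, 764 kept their direction and their side of the threshold, 30 lost the call, 12 gained one and 31 changed sign, none of them called in the reported fit. Scaling by library totals without TMM, an alternative chosen after seeing the data, shifted the median of all genes to -0.13 in siNAE1, -0.050 in siUBE2M and -0.11 in siURM1, and the share of calls that were higher from 50.5%, 50.1% and 50.0% to 38.3%, 41.8% and 38.5%. Under it ELP2 turned to -0.11, -0.043 and -0.056 in the 3 knockdowns, ELP3 to -0.034 in siUBE2M and -0.048 in siURM1, and ELP5 to -0.050 in siURM1, while ELP2 and ELP3 turned to 0.013 and 0.015 between siUBE2M and siURM1. ELP2 in siNAE1 was -0.017 with at least 10 counts in every library and -0.0057 with 2 groups per fit. None of these passed, and the cause was not tested.

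A library was left out in turn, and members passing are counted here for fits that kept both siURM1 libraries. In siNAE1 they ranged from 4 (without control replicate 2 or 3) to 6, where 50.6% to 55.7% of all tested genes passed. DESeq2 on 2 groups also gave 4 (40.7%). They ranged from 3 to 4 in siUBE2M (40% to 46.4%) and stayed at 2 in siURM1 (37.7% to 42.9%). Between siNAE1 and siUBE2M they ranged from 4 to 6 (38.9% to 44.2%). Between siNAE1 and siURM1 they ranged from 3 to 5 (34.5% to 39.8%). They stayed at 4 between siUBE2M and siURM1 (30% to 36.3%). Calls lost with 1 siURM1 library left are named above, and the ranges below include those fits. Values that crossed 0 in siNAE1 were CTU2 (-0.098 to 0.084) and ELP2 (-0.020 to 0.053), in siUBE2M ELP3 (-0.026 to 0.093) and ELP5 (-0.095 to 0.044), and in siURM1 ELP2 (-0.013 to 0.087) and ELP6 (-0.059 to 0.057). Between siNAE1 and siUBE2M ELP2 ranged from -0.036 to 0.047, and between siNAE1 and siURM1 ELP2 from -0.075 to 0.026 and ELP4 from -0.026 to 0.13. Between siUBE2M and siURM1 the ranges were -0.17 to 0.0076 for CTU1, -0.071 to 0.027 for ELP2, -0.068 to 0.039 for ELP3 and -0.13 to 0.029 for ELP4.

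In place of FPKM, levels were also taken from counts scaled by library totals alone and divided by gene length in kilobases. Unlike the CPM above, these levels carry no TMM factors, so they differ from it in scaling as well. They gave 12.7 for URM1, 4.10 for MOCS3, 18.8 for ELP2, 6.79 for ELP3 and 0.841 for ELP4 in control. In siNAE1 they gave 14.1 for URM1 and 16.6 for ELP6, and in siURM1 32.2 for ELP5 and 26.1 for ELP6. Libraries with the same replicate number correlated between -0.066 and 0.079 in their deviations, so the numbers did not pair them. With the replicate block, 6, 3 and 2 members passed against control and 5, 3 and 4 between knockdowns, the only change being MOCS3 between siNAE1 and siURM1 (edgeR adjusted p = 0.050). In these fits 54.4%, 45.1% and 40.4% of all tested genes passed against control, and 43.8%, 37% and 34.3% between knockdowns. At this depth and number of libraries, the 95% intervals of the members were 0.24 (ELP2) to 0.49 (CTU1) wide on the log2 scale.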
